A study of Mus musculus with 6 samples.

Results

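The 51 genes described here encode proteins of the G2 phase and of mitosis, and they were chosen by name from 27998 genes of a single-cell RNA-seq data set of mouse retina at embryonic day 14. Their UMI counts (unique molecular identifiers, 1 per captured mRNA molecule) were followed across 5 cell types and 3 genotypes. Each genotype was measured in 2 libraries made with 10x Genomics 3' v2 chemistry. The Bax null retinas lacked Bax, an effector of programmed cell death, and carried wild-type Atoh7. The Bax het Atoh7 null retinas had 1 mutant Bax allele and lacked Atoh7, a proneural transcription factor needed for most retinal ganglion cells. The Bax null Atoh7 null retinas lacked both genes. Every group carried a mutant allele of Bax, and no group had both genes intact. In all, 67050 cells of the 6 libraries were used, with the authors' own cell type labels.

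Dividing cells make most of these transcripts in G2 and shut them off on leaving mitosis. Cdk1 with a B-type cyclin drives entry into mitosis, the Aurora kinases and the kinesins build the spindle, and the kinetochore ties chromosomes to it. The spindle checkpoint then holds the anaphase-promoting complex, a ubiquitin ligase activated by Cdc20, until every chromosome is attached. In the embryonic retina, multipotent progenitors divide repeatedly, neurogenic cells are those close to their last division, and ganglion cells, cones and horizontal cells are postmitotic neurons. All 51 genes were present in the matrix under a unique symbol, lay on 18 chromosomes and passed the filter on low counts in both dividing types.

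Several facts about the libraries bear on every comparison. The Bax null libraries were deeper than the other 4 (median 5660.5 and 6804 UMIs per cell against 1634 to 2632), and mitochondrial genes took 3.8% and 3.9% of their UMIs against 1.06% to 1.15%. Because both libraries of 1 genotype stood apart, a library batch and the genotype cannot be told apart wherever Bax null was compared, and a within-batch value could not be computed. The pair of Bax null Atoh7 null libraries shared 2596 cell barcodes, 17.6% and 22% of their cells, and 89.4% of these carried the same cell type label in both. The other 14 pairs of libraries shared 126 to 223 barcodes, with 34.3% to 46% of them under the same label. Whether these replicates are independent was not tested otherwise, and results are given with and without the shared barcodes. Bax stood at 47.7 CPM (the count normalised to library size) in the first of the libraries labelled Bax null Atoh7 null, above the 11 to 17.1 CPM of the other Bax null libraries and below the 108 and 144 CPM of Bax het Atoh7 null, so its label was partly contradicted. Atoh7 was at 5.96 and 6.88 CPM in the Bax null libraries and had 0 UMIs in the other 4. Progenitor markers were highest in the progenitor label for 7 of 7 genes, and ganglion cell, cone and horizontal or amacrine markers in their own label for all 10, 6 and 8. Of the 8 neurogenic markers 5 were highest in the neurogenic label, while Btg2 and Dll3 were highest in cones. Blood markers summed to 254 and 201 CPM in the Bax null libraries and to 2.49 to 77.2 CPM in the others; their part in the results was not tested.

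The 51 genes were most abundant in neurogenic cells, somewhat less so in progenitors, and low in the 3 neuronal types. As a share of all UMIs of the type, they took 1.15% to 1.3% in neurogenic cells, 0.87% to 1.02% in progenitors and 0.146% to 0.255% in ganglion cells over the 6 libraries. Cones (0.167% to 0.238%) and horizontal cells (0.173% to 0.284%) lay close to ganglion cells, and no library of a neuronal type reached any library of a dividing type. Because the authors' types were drawn from the same counts, these levels are a description without a test.

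**Figure D1:**
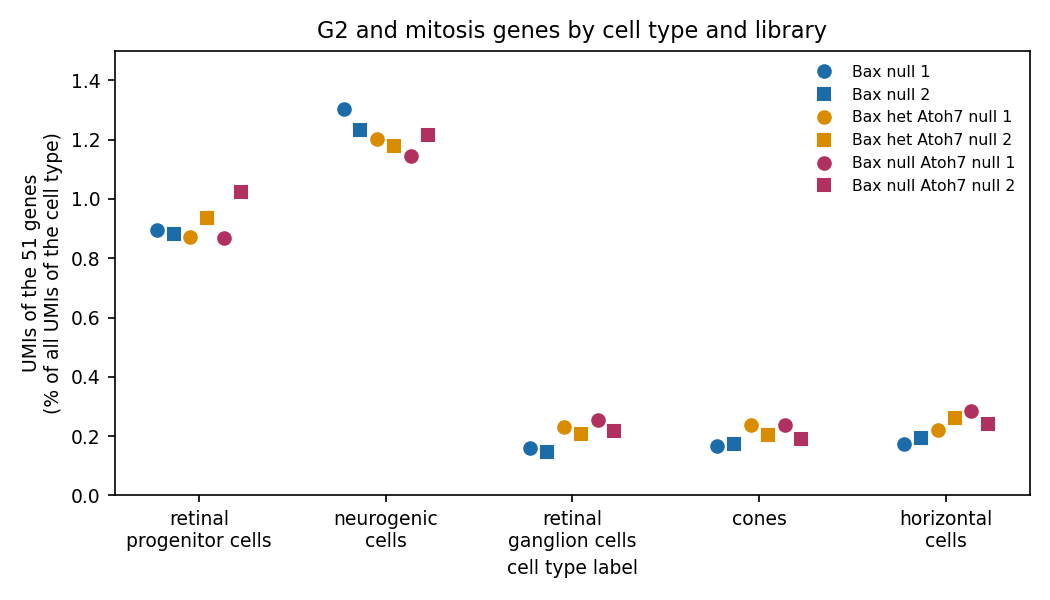
UMIs of the 51 genes as a percentage of all UMIs of a cell type (vertical axis) for the 5 cell type labels (horizontal axis), with 1 point per library, coloured by genotype. Neurogenic cells lie between 1.15% and 1.3%, progenitors between 0.87% and 1.02%, and the 3 neuronal types below 0.29%.

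Within each library, 42 of the 51 genes were higher in neurogenic cells than in progenitors in all 6 libraries, none was lower in all 6, and 9 were mixed. The share of all genes that did so is not given, so this count is a description. The median gene stood 1.34-fold higher. Hmmr, a microtubule-binding protein of the spindle poles, had the largest median ratio at 1.94-fold (1.59 to 2.14 over the libraries), followed by the centrosomal kinase Nek2 at 1.75-fold and by Aurka, which drives centrosome maturation, at 1.64-fold. Psrc1, a microtubule-associated protein, was the only gene with a median ratio below 1, at 0.841-fold (0.719 to 1.32).

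Among the genes of mitotic entry, Cdk1 was at 162.5 to 263.4 CPM in progenitors, 232.7 to 316.8 CPM in neurogenic cells and 6.88 to 38.7 CPM in ganglion cells. Ccnb2, a B-type cyclin that binds Cdk1, was at 93.6 to 188.6 CPM, 147.3 to 209 CPM and 6.51 to 21.5 CPM in the same types. Both genes were far below either dividing type in every ganglion cell library. Of the anaphase machinery, Cdc20 was at 113.4 to 288.3 CPM in progenitors and 190.4 to 329.9 CPM in neurogenic cells, with 8.62 to 46.2 CPM in ganglion cells. Ube2c, the ubiquitin-conjugating enzyme of the anaphase-promoting complex, was at 317.3 to 482.6, 445.8 to 643.3 and 19.7 to 76 CPM. The ranges of progenitors and neurogenic cells overlapped across libraries for all 4 genes, although the neurogenic value was the higher within each library.

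Not every gene of the set was confined to the dividing types. Over the 51 genes the median ratio of ganglion cells to progenitors was 0.126, and 39 genes lay below 0.2. The 5 genes at or above 0.5 were Rangap1 (0.895), the GTPase activator of Ran that also works in nuclear transport, the ubiquitin ligase G2e3 (0.79), the microtubule polymerase Ckap5 (0.691), the histone chaperone Anp32e (0.613) and the heterochromatin protein Cbx5 (0.557). Ranges of these genes in ganglion cells therefore approached those in progenitors: Rangap1 was at 65.7 to 150 CPM in ganglion cells and 70.9 to 179.9 CPM in progenitors. In contrast, Kif2c, a kinesin that removes tubulin from microtubule ends, was at 0.917 to 8.88 CPM in ganglion cells and 22.4 to 62.2 CPM in progenitors.

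To see how the set was spread over single cells, each cell was thinned at random to 1000 UMIs, which left out 2410 cells with fewer and kept 64640. The loss differed by genotype. It took no Bax het Atoh7 null cells and 1.92% to 2.18% of the Bax null progenitors or neurogenic cells of a library. In Bax null Atoh7 null it took 5.42% and 9.68% of progenitors and 5.33% and 10.9% of neurogenic cells. A cell was then counted as high where the 51 genes made up at least 1% of its UMIs, that is 10 of 1000. This threshold is a point on a continuous range and defines no cell type: 1971 progenitor or neurogenic cells had 9 such UMIs and 1811 had 10, and 16.5% to 19.1% of the progenitors of a library lay between 0.8% and 1.2%. The distribution was broad in dividing types, with a median of 0.5% to 0.7% and a 90th percentile of 1.8% to 2.2% in progenitors, and a median of 0.8% to 1.2% and a 90th percentile of 2.4% to 2.6% in neurogenic cells. In ganglion cells the median was 0.1% or 0.2% and the 90th percentile 0.3% to 0.5%.

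**Figure D2:**
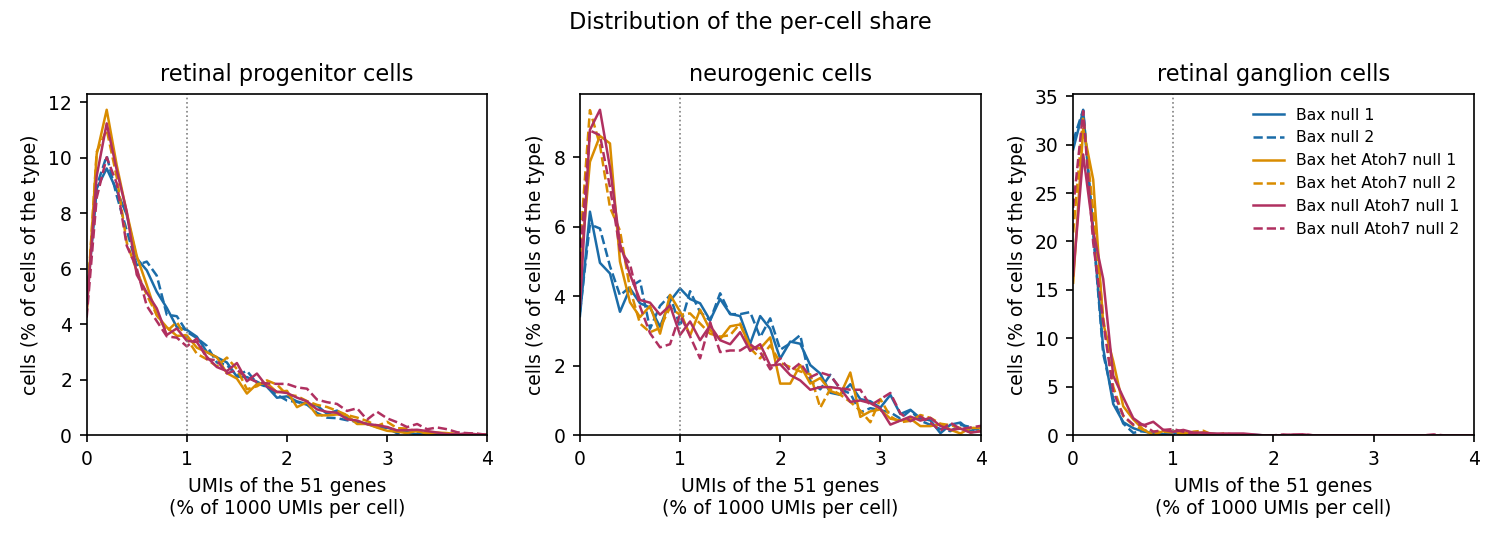
Share of 1000 UMIs per cell that fell on the 51 genes (horizontal axis, percent; cells above 4% are not drawn) against the percentage of cells with that share (vertical axis, scaled per panel), in progenitors, neurogenic cells and ganglion cells, with 1 line per library. The dotted line marks 1%; 32.3% to 39.4% of progenitors, 45.4% to 58.3% of neurogenic cells and at most 2.52% of ganglion cells of a library lie at or to the right of it.

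High cells made up 32.3% to 39.4% of progenitors and 45.4% to 58.3% of neurogenic cells. They were rare under the neuronal labels: 92 of 7197 ganglion cells (1.28%), 32 of 3034 cones (1.05%) and 36 of 2589 horizontal cells (1.39%). Of those 92, 32 and 36 cells, 77, 26 and 33 belonged to the top 8% of their library by Scrublet doublet score, a set that took 6.25%, 9.79% and 9.93% of all cells with those labels. High ganglion cells also had more UMIs than the rest (median 5318 against 3463), and progenitor markers took 0.358% of their UMIs against 0.0622%; whether they were doublets was not tested otherwise. The neuronal shares give the background against which the shares of dividing types can be read.

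The authors' clusters split the dividing types along the same range. Of 84 progenitor clusters, 26 had a median share of at least 1%, and they held 79.4% of the high progenitors. Of 27 neurogenic clusters, 13 did so and held 88.2% of the high neurogenic cells. Cluster medians ran from 0.2% to 2.4% in progenitors and from 0.2% to 2.8% in neurogenic cells, whereas no ganglion cell cluster exceeded 0.2%. High cells had 1.12 to 1.3 times the median UMIs of the other cells of their type and library.

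How closely each gene followed the set was measured by sorting cells on the other 50 genes alone and comparing the left-out gene between high cells and the rest of the same type. All 51 genes were higher in the high cells in all 6 libraries and in both types. The median gene differed 4.69-fold in progenitors and 5.22-fold in neurogenic cells. Ube2c followed the others most closely in progenitors, with a median of 14.9-fold (10.5 to 15.6 over the libraries), then Cdc20 with 10.2-fold (9.12 to 11) and Hmmr with 9.91-fold (8.52 to 12.5). In neurogenic cells Gas2l3, which links actin and microtubules in late mitosis, stood at 14.9-fold (11.2 to 21.2) and Ube2c at 11.3-fold (10 to 14.3). The 4 genes that followed least in progenitors were under 2-fold: Cbx5 differed 1.11-fold (1.08 to 1.15), Tmpo, a lamina-associated protein, 1.45-fold (1.37 to 1.51), Anp32e 1.49-fold (1.39 to 1.54) and the Cdk subunit Cks1b 1.97-fold (1.77 to 2.09). This sorting used a threshold of 1% of all UMIs of each cell, without thinning. High cells and the rest came from the same libraries and were not matched for depth, so these folds are a description.

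**Figure D3:**
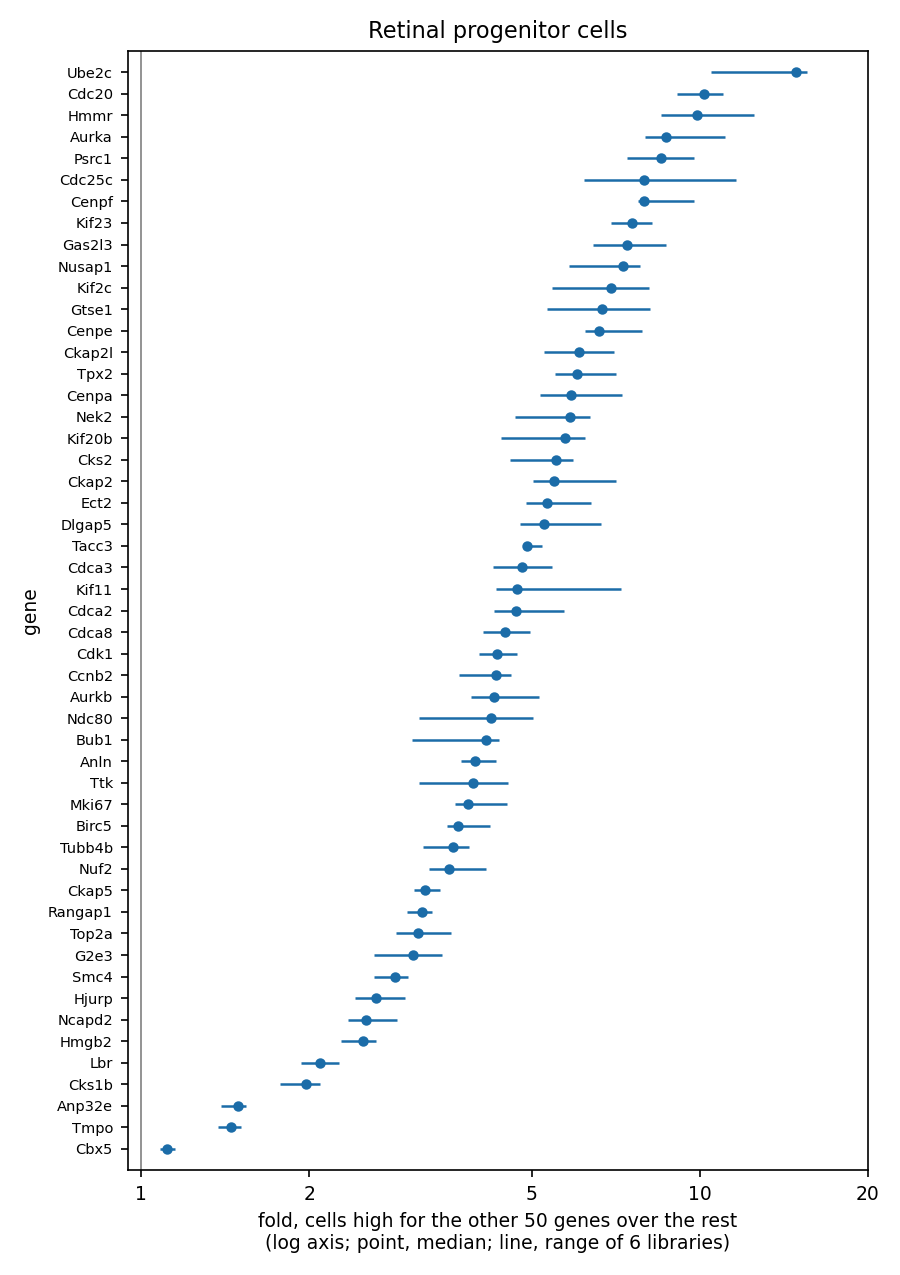
For each of the 51 genes (vertical axis), the fold by which its level in progenitors high for the other 50 genes exceeded that in the remaining progenitors (horizontal log axis); points are medians and lines the range over 6 libraries. Ube2c is at the top with 14.9-fold and Cbx5 at the bottom with 1.11-fold, and no line crosses 1.

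Genotypes were then compared on UMIs summed per library within progenitors and within neurogenic cells, with the edgeR quasi-likelihood test and Benjamini-Hochberg adjustment over all genes tested. Genes are said to have risen or fallen where the adjusted p was under 0.05. Such sums cannot tell fewer cells in G2 or mitosis from less mRNA in each of them. Against Bax null, the Bax null Atoh7 null progenitors had 11 members of the set that rose and 19 that fell, 30 of 51, where 53.9% of all genes tested passed, 26.8% as higher and 27.1% as lower. Neurogenic cells had 8 that rose and 28 that fell, 36 of 51, where 47.3% of all genes passed, 23.5% as higher and 23.8% as lower. The members' median log2 fold change was -0.06 in progenitors and -0.33 in neurogenic cells, beside 0.01 and 0 for all genes. Of the 51 genes, 8 rose in both types, 19 fell in both, and none passed in opposite directions. With the shared barcodes left out, 9 rose and 25 fell in progenitors, and 8 rose and 30 fell in neurogenic cells. The shares of all genes at this setting are not given.

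The scaling decides this split between higher and lower genes. The trimmed mean of M values (TMM) factors of edgeR were 0.76 to 0.779 for the Bax null sums and 1.1 to 1.24 for the others. With library size as the only scaling, the median of all genes shifted by 0.64 in progenitors and 0.59 in neurogenic cells on the log2 scale, and 37 members rose and 5 fell in progenitors, with 24 and 6 in neurogenic cells. Of all genes, 66.5% then rose and 6.87% fell in progenitors, and 60.5% and 7.06% in neurogenic cells. Under the TMM factors the values below are relative to the median gene.

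The widest differences were in genes of chromatin and of mitotic entry. Hmgb2, a chromatin protein that bends DNA, stood at 2930 and 3050 scaled CPM in the Bax null progenitor libraries, against 962 and 1130 for Bax het Atoh7 null, with 584 and 626 for Bax null Atoh7 null. The 3 genotypes did not overlap. Relative to Bax null it fell by 2.31 on the log2 scale in Bax null Atoh7 null progenitors (SE 0.13, edgeR adjusted p = 1.713e-06) and by 2.29 in neurogenic cells (SE 0.13, adjusted p = 1.140e-07). Cks2, a small subunit that binds Cdk1, was at 772 and 760 scaled CPM in Bax null progenitors, 226 and 256 for Bax het Atoh7 null, with 209 and 200 for Bax null Atoh7 null. It fell by 1.91 in progenitors (SE 0.099, adjusted p = 1.099e-06) and by 2.03 in neurogenic cells (SE 0.13, adjusted p = 2.725e-07). Mki67, which coats mitotic chromosomes and is the usual marker of dividing cells, was at 206 and 191 scaled CPM in Bax null progenitors, 70.1 and 62.1 for Bax het Atoh7 null, with 82.4 and 83.6 for Bax null Atoh7 null. The groups lacking Atoh7 were both well below Bax null for Cks2 and Mki67, with a fall of 1.26 for Mki67 in progenitors (SE 0.088, adjusted p = 7.371e-06) and 1.47 in neurogenic cells (SE 0.11, adjusted p = 1.549e-06).

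Other members rose in the same contrast. Lbr, the lamin B receptor of the inner nuclear membrane, was at 42.2 and 40.9 scaled CPM in Bax null progenitors, 123 and 127 for Bax het Atoh7 null, with 94.2 and 96.4 for Bax null Atoh7 null. It rose by 1.2 in Bax null Atoh7 null progenitors (SE 0.075, edgeR adjusted p = 3.840e-06) and by 1.26 in neurogenic cells (SE 0.095, adjusted p = 1.217e-06). Gas2l3 was at 18.5 and 19.2 scaled CPM in Bax null progenitors against 35.4 and 36.7 in Bax null Atoh7 null, a rise of 0.93 (SE 0.078, adjusted p = 1.959e-05). Kif2c rose by 0.77 (SE 0.073, adjusted p = 3.939e-05) and Nek2 by 0.73 (SE 0.15, adjusted p = 0.00316) in progenitors, and both also rose in neurogenic cells. Aurka, by comparison, was at 45.2 and 45.2 scaled CPM in Bax null progenitors and 42.9 and 47.8 in Bax null Atoh7 null, where the groups overlapped.

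Grouped by role in progenitors, 4 of the 7 genes of mitotic entry fell and 1 rose, while 3 of the 5 genes of the checkpoint and the anaphase-promoting complex fell and 1, Cdc20, rose. Of the 6 mitotic kinases and passenger complex genes 1 fell and 1 rose, and of the 3 cytokinesis genes 1 fell. Of the 13 spindle and microtubule genes 4 fell and 2 rose, of the 6 centromere and kinetochore genes 1 fell and 2 rose, and of the 11 genes of chromosome structure and the nuclear envelope 5 fell and 4 rose. In neurogenic cells 6 of 7 genes of mitotic entry fell and none rose, and 3 of 5 checkpoint and anaphase genes fell and none rose. There 7 of 13 spindle genes fell and 2 rose, 4 of 6 centromere genes fell and 1 rose, 2 of 6 kinase and passenger genes fell and 1 rose, 1 of 3 cytokinesis genes fell, and 5 of 11 chromosome and envelope genes fell and 4 rose. Beside these counts, 23.8% of all genes fell and 23.5% rose in neurogenic cells, and 27.1% and 26.8% in progenitors. The motor Kif11, which pushes the spindle poles apart, fell by 1.07 in progenitors (SE 0.11, edgeR adjusted p = 7.505e-05) and by 1.11 in neurogenic cells (SE 0.17, adjusted p = 0.000263). Among the examples, Top2a, the topoisomerase that untangles sister chromatids, fell by 0.34 in progenitors (SE 0.094, adjusted p = 0.013) and 0.32 in neurogenic cells (SE 0.12, adjusted p = 0.0485). With library size as the only scaling the direction of Top2a turned, to log2 fold changes of +0.29 and +0.27.

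The contrast of Bax het Atoh7 null with Bax null uses the same Bax null libraries. There, 12 members rose and 18 fell in progenitors, where 53.1% of all genes tested passed, 26.6% as higher and 26.5% as lower. In neurogenic cells 10 rose and 24 fell, where 47.1% passed, 23.4% as higher and 23.8% as lower. With library size alone 35 rose and 7 fell in progenitors, where 60.4% and 6.6% of all genes did, and 25 and 8 in neurogenic cells, where 54.8% and 6.69% did. In progenitors Hmgb2 fell by 1.51 (SE 0.12, edgeR adjusted p = 1.882e-05), Cks2 by 1.67 (SE 0.098, adjusted p = 2.863e-06) and Mki67 by 1.58 (SE 0.089, adjusted p = 2.158e-06). Lbr rose by 1.59 in progenitors (SE 0.076, adjusted p = 7.155e-07) and by 1.67 in neurogenic cells (SE 0.095, adjusted p = 1.240e-07).

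The genotypes lacking Atoh7 lay on the same side of the depth gap and were closer to each other. From Bax het Atoh7 null to Bax null Atoh7 null, 2 members fell and none rose in progenitors, where 2.01% of all genes passed, 0.0597% as higher and 1.95% as lower. In neurogenic cells the same 2 members fell, where 1.77% passed, 0.00857% as higher and 1.76% as lower. Hmgb2 fell by 0.79 in progenitors (SE 0.12, edgeR adjusted p = 0.0176) and by 0.74 in neurogenic cells (SE 0.12, adjusted p = 0.0105). Lbr fell by 0.39 in progenitors (SE 0.074, adjusted p = 0.0314) and by 0.41 in neurogenic cells (SE 0.092, adjusted p = 0.0451). For both genes, both libraries of 1 group lay below both of the other in each type. With the shared barcodes left out, Hmgb2 kept its call (adjusted p = 0.0287 in progenitors and 0.0242 in neurogenic cells) and Lbr lost it (0.0871 and 0.0695). Lbr also lost its call in both types without either Bax het Atoh7 null or either Bax null library (adjusted p = 0.116 to 0.267 in progenitors and 0.122 to 0.358 in neurogenic cells), and in neurogenic cells without the second Bax null Atoh7 null library (0.0754). Its call ended in both types with only the 4 libraries compared (0.118 and 0.109) or with library size alone (0.151 and 0.159), and in progenitors with no filter (0.0583). In neurogenic cells it also ended with DESeq2 (0.104), doublets left out (0.0507) and thinned sums (0.0891). Leaving out either Bax het Atoh7 null library ended the call of Hmgb2 in progenitors (adjusted p = 0.0521 and 0.173) and in neurogenic cells (0.0578 and 0.2), and removing a Bax null library brought it to the threshold (0.0516 and 0.0503 in progenitors, 0.0502 and 0.0491 in neurogenic cells). Without the library whose Bax level went against its label, Hmgb2 differed by -0.74 and Lbr by -0.37 in progenitors.

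**Figure D4:**
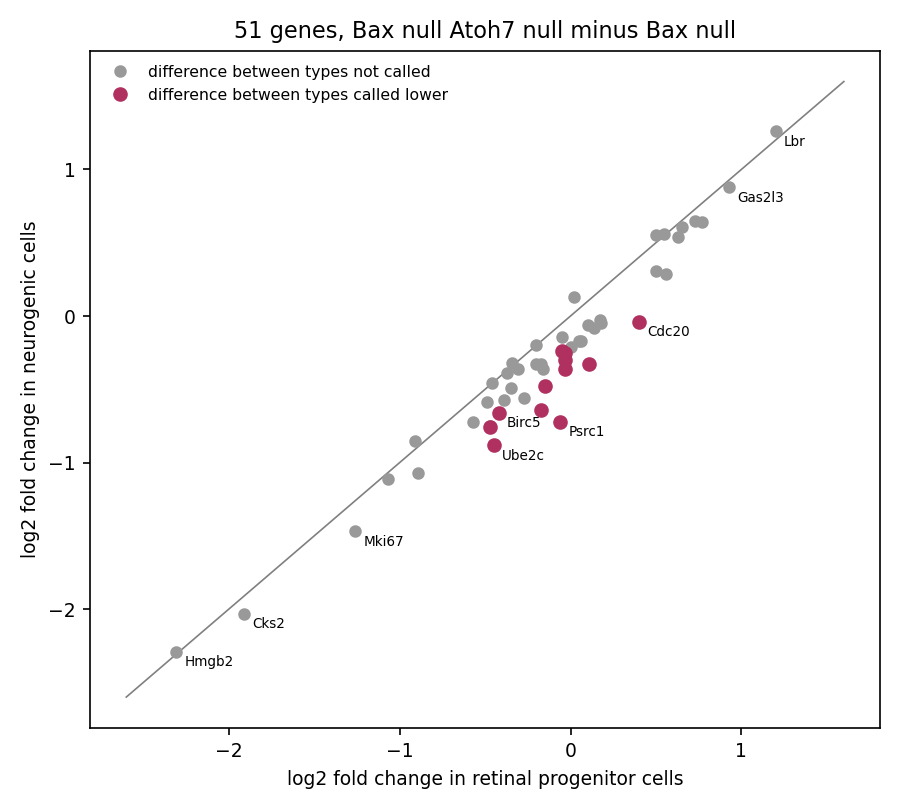
Log2 fold changes of the 51 genes for Bax null Atoh7 null relative to Bax null in progenitors (horizontal axis) and neurogenic cells (vertical axis); the line marks equal values, and red points are the 12 genes whose difference between the types passed the edgeR test. Hmgb2, Cks2 and Mki67 lie at the lower left and Lbr and Gas2l3 at the upper right, and all 12 red points lie below it.

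Whether the genotype difference itself differed between neurogenic cells and progenitors was tested as an interaction on the 12 sums, with the library as a block, so that a level shared by both types of a library cancels. For Bax null Atoh7 null against Bax null, 12 of the 51 members were lower in this difference and none was higher. Among all 13371 genes tested 7.46% passed, 4.21% as higher and 3.25% as lower. The members that passed were Birc5, Ccnb2, Cdc20, Cenpa, Cenpe, Cenpf, Ckap2, Nusap1, Psrc1, Tpx2, Tubb4b and Ube2c. By role they comprised 4 spindle genes, 3 of the centromere and kinetochore, 2 of the anaphase-promoting complex, 2 of the Aurora kinase group and 1 of mitotic entry, with none from chromosome structure or cytokinesis. The neurogenic over progenitor ratio of both Bax null Atoh7 null libraries lay below both Bax null libraries for 31 of 51 members, beside 23.2% of all genes. With the shared barcodes left out 8 of the 12 kept their call, and Cenpe, Nusap1, Tpx2 and Tubb4b did not. DESeq2 also called 8, without Cenpe, Ckap2, Tpx2 and Tubb4b. Birc5, Cenpe, Ckap2, Nusap1, Tpx2 and Tubb4b each lost their call in some fits with a library left out. Psrc1 alone kept its call when the replicate number took the place of the library as block, which no longer matches the types within a library. The cells with the highest doublet scores held 15.7% of neurogenic cells and 5.68% of progenitors, and with them left out all 12 members kept their call.

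Cdc20 shows the pattern by library. Its log2 ratio of neurogenic cells to progenitors was 0.77 and 0.75 in Bax null, 0.50 and 0.12 for Bax het Atoh7 null, with 0.38 and 0.19 for Bax null Atoh7 null. The Bax null ratios were above the other 4, and the 2 other genotypes overlapped. The interaction was -0.41 for Bax null Atoh7 null against Bax null (SE 0.067, edgeR adjusted p = 4.047e-05). For Ube2c the ratios were 0.76 and 0.76, 0.49 and 0.30, and 0.42 and 0.19 in the same order, with an interaction of -0.39 (SE 0.051, adjusted p = 5.782e-07). Ccnb2 had ratios of 0.65 and 0.61, 0.31 and 0.15, and 0.16 and 0.12, with -0.42 (SE 0.061, adjusted p = 3.869e-06). In these 3 genes the excess of neurogenic cells over progenitors was smaller in every library lacking Atoh7 than in either Bax null library.

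Psrc1 changed side. Its log2 ratio was 0.25 and 0.40 in Bax null, -0.22 and -0.45 for Bax het Atoh7 null, with -0.28 and -0.48 for Bax null Atoh7 null, so that it was higher in neurogenic cells than in progenitors in both Bax null libraries and lower in the other 4. In neurogenic cells it was at 55 and 56.3 scaled CPM with Bax null against 35.5 and 31.9 for Bax null Atoh7 null, while in progenitors it was at 46.8 and 43.2 against 43 and 43.1. The interaction was -0.63 (SE 0.1, edgeR adjusted p = 2.833e-05). Ckap2, a spindle protein, had an interaction of -0.45 (SE 0.1, adjusted p = 0.00306), Cenpa, the histone H3 variant of centromeres, of -0.31 (SE 0.051, adjusted p = 4.669e-05) and the tubulin Tubb4b of -0.17 (SE 0.049, adjusted p = 0.024).

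For Bax het Atoh7 null against Bax null, which shares the Bax null libraries, 9 members were lower in the difference and Top2a was higher (8.35% of all genes passed, 4.22% as higher and 4.13% as lower). The interaction was -0.63 for Psrc1 (SE 0.11, edgeR adjusted p = 3.999e-05), -0.58 for Ckap2 (SE 0.099, adjusted p = 6.844e-05), -0.42 for Cdc20 (SE 0.067, adjusted p = 2.176e-05) and 0.15 for Top2a (SE 0.046, adjusted p = 0.0341). The calls of Cdc20, Cenpa, Cenpe, Cenpf, Ckap2, Tubb4b and Ube2c ended without the second Bax het Atoh7 null library. Those of Cenpa, Cenpe, Cenpf, Top2a and Tubb4b ended without the first Bax null library. With the shared barcodes left out 7 of the 10 members kept their call. Comparing the genotypes that lack Atoh7 with each other, the edgeR test called 0 members and 0 of all genes (0%), DESeq2 also called 0 members, and 5 of 51 members and 640 of 13371 genes had an unadjusted p under 0.05.

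**Figure D5:**
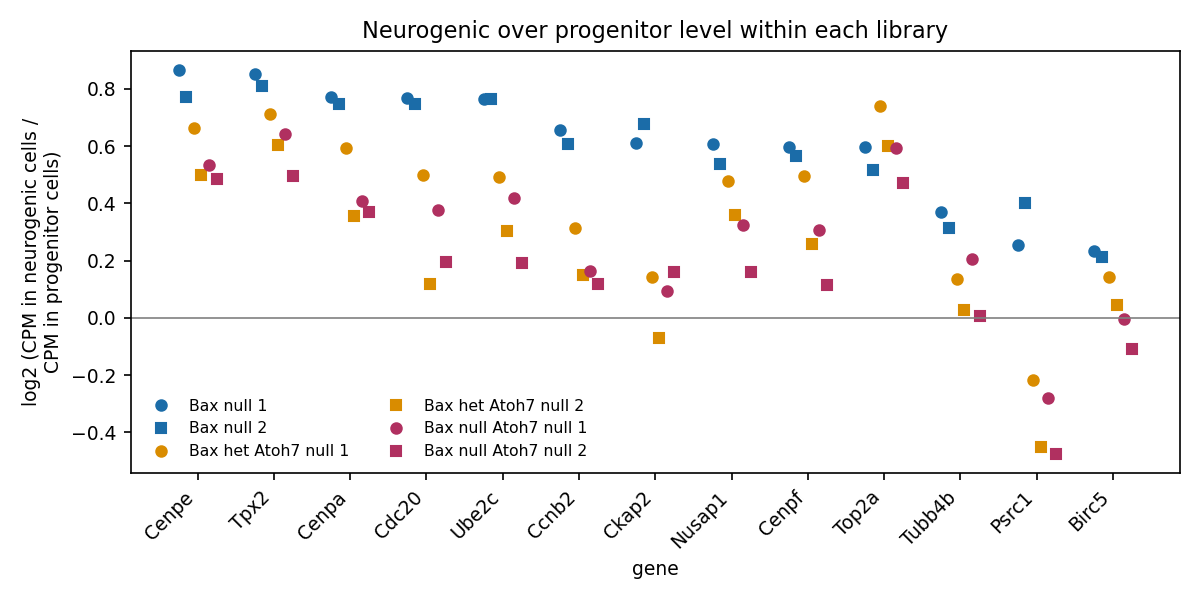
Log2 ratio of CPM in neurogenic cells to CPM in progenitors (vertical axis) within each library for the 13 genes that passed the interaction test in either contrast with Bax null (horizontal axis); colours mark genotypes and symbols replicates. Both Bax null points lie above the other 4 for 12 of the genes, Top2a being the exception, and Psrc1 lies below 0 in all 4 libraries lacking Atoh7.

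Other lists of the cell cycle were read in the same fit. Of 41 further mitotic genes, none of them a member, 9 were lower and 0 higher in the difference for Bax null Atoh7 null against Bax null, among them Arl6ip1 (-0.48, SE 0.061, edgeR adjusted p = 4.694e-07), the kinase Plk1 (-0.38, SE 0.082, adjusted p = 0.00162) and the cyclin Ccnb1 (-0.35, SE 0.065, adjusted p = 0.000279). Of 42 S phase genes, which serve DNA replication, 13 were higher and 0 lower, among them the ribonucleotide reductase subunit Rrm2 (0.40, SE 0.055, adjusted p = 2.105e-06), Clspn (0.39, SE 0.067, adjusted p = 7.806e-05) and Pcna, the sliding clamp (0.30, SE 0.068, adjusted p = 0.00242). Of all genes, 3.25% were lower and 4.21% higher in the difference for Bax null Atoh7 null against Bax null. For Bax het Atoh7 null against Bax null the counts were 8 lower of 41 and 19 higher of 42, beside 4.13% lower and 4.22% higher of all genes. The S phase counts were smaller under other settings: in the first contrast 7 were higher with the highest doublet scores left out, and 8 were higher and 1 lower with library size as the only scaling. For these settings the shares of all genes are not given. The median interaction was -0.14 over the 51 members, -0.08 over the 41 further mitotic genes, 0.18 over the S phase genes and 0.02 over all genes in the first contrast. S phase genes took 0.345% and 0.359% of neurogenic UMIs in Bax null and 0.478% to 0.539% in the other 4 libraries. The same order held for S phase genes in progenitors (0.378% and 0.382% against 0.448% to 0.546%) and for the 41 further mitotic genes in neurogenic cells (0.325% and 0.35% against 0.447% to 0.482%). These were shares of all UMIs, not scaled by the TMM factors. Divided by those factors, Bax null overlapped the other libraries in neurogenic cells for both lists. In progenitors the scaled share of S phase genes was higher in Bax null than in the others.

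Shares of high cells were compared next. Among neurogenic cells it was 58.3% and 56% in the Bax null libraries (Wilson 95% intervals 55.8% to 60.6% and 53.6% to 58.4%), 47.6% and 47.2% for Bax het Atoh7 null (45.4% to 49.9% and 45.2% to 49.2%), with 45.4% and 48.4% for Bax null Atoh7 null (43.4% to 47.3% and 46.3% to 50.4%). At this threshold both Bax null libraries lay above the other 4, with group means of 57.1% ± 1.61, 47.4% ± 0.276 and 46.9% ± 2.12 (SD, n = 2). No test is given for a score over the members, and an exact permutation test of 2 against 2 libraries could not go below 0.33. At a threshold of 2% the Bax null libraries, at 23% and 21.1%, no longer lay above all others, since the second Bax null Atoh7 null library was at 22.3%. Left unthinned, the means were 58.3%, 47.2% and 46.3%, and without the shared barcodes the last was 43.6%. The intervals cover counting error only.

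Among progenitors the shares were 34% and 33.3% in Bax null, 32.3% and 35% for Bax het Atoh7 null, with 34.4% and 39.4% for Bax null Atoh7 null, so that Bax het Atoh7 null overlapped both other genotypes while both Bax null Atoh7 null libraries lay above both Bax null ones. The means were 33.7% ± 0.509, 33.7% ± 1.85 and 36.9% ± 3.57 (SD, n = 2), and the last was 32.2% without the shared barcodes, where its libraries, at 30.8% and 33.5%, overlapped those of Bax null. Left unthinned, with no cell left out for depth, the progenitor means were 31.72%, 31.95% and 34.58% in the same order. Hmgb2 carried 0.225% and 0.232% of all progenitor UMIs in Bax null but 0.0664% to 0.125% in the others, so it weighs on any sum over the set. Without Hmgb2 the other 50 genes took 0.65% and 0.671% of progenitor UMIs in Bax null and 0.765% to 0.946% in the other 4 libraries. In neurogenic cells they took 0.973% and 0.911% in Bax null and 1.01% to 1.12% in the others, so there the sum without Hmgb2 was lower in Bax null, the opposite order to the share of high cells. These sums were shares of all UMIs, not scaled by the TMM factors. Divided by those factors, they were higher in Bax null than in the others in both types. On the 39 members left when 12 genes that neurons also express were set aside, with a threshold of 0.5% of UMIs, the neurogenic means were 54.7% in Bax null, 47.5% for Bax het Atoh7 null, with 49.3% for Bax null Atoh7 null, and the progenitor means were 33%, 35.4% and 40.4%.

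High neurogenic cells also differed in their S phase genes. In the 4 libraries lacking Atoh7 these genes took 0.519% to 0.619% of UMIs in high neurogenic cells and 0.433% to 0.464% in the rest, whereas in the Bax null libraries they took 0.36% and 0.339% against 0.358% and 0.353%. In progenitors S phase genes were lower in high cells than in the rest of the same library in all 6, with 0.31% to 0.463% against 0.419% to 0.616%. High and remaining cells were split on the members, so these values are a description.

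Promoters of 6 of the 9 genes that were lower in the difference between types in both contrasts with Bax null are shown, 4 with and 2 without a match to the first motif below, because members of this set are known to share a pair of promoter elements, the cell cycle genes homology region (CHR, searched as TTTGAA) and the CCAAT box (searched as CCAAT), both on either strand. The 250 bases before the start are printed 5′ to 3′ on the gene's strand, from RefSeq on GRCm38.p6, in lower case with matches in capitals; a match on the opposite strand reads TTCAAA or ATTGG. Cdc20 lies at chr4:118437344-118437593 (minus strand), Ube2c at chr2:164769679-164769928 (plus), Ccnb2 at chr9:70421555-70421804 (minus) and Ckap2 at chr8:22185820-22186069 (minus). Psrc1 lies at chr3:108383554-108383803 (plus; the first of its 2 promoters) and Cenpa at chr5:30666636-30666885 (plus), and Hmgb2, at chr8:57511593-57511842 (plus), is added as the gene that differed most between genotypes.
Cdc20: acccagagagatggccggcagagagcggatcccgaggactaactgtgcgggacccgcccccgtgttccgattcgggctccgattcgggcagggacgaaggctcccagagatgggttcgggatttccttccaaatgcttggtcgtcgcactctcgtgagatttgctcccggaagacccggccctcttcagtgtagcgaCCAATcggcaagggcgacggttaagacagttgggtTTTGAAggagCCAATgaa
Ube2c: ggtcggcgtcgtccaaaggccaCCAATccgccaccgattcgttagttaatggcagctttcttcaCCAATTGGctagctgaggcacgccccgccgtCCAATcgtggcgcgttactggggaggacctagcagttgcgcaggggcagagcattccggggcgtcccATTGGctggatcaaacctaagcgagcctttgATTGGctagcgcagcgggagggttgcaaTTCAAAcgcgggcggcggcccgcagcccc
Ccnb2: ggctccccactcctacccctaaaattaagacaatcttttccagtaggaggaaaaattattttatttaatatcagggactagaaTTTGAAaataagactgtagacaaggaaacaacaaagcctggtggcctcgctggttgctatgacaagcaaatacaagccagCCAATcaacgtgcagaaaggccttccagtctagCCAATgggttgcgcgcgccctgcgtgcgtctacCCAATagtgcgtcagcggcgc
Ckap2: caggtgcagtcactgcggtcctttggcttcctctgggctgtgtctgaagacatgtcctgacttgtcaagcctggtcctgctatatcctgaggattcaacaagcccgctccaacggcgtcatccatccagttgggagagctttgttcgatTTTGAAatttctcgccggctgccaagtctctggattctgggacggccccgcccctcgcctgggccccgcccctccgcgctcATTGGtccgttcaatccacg
Psrc1: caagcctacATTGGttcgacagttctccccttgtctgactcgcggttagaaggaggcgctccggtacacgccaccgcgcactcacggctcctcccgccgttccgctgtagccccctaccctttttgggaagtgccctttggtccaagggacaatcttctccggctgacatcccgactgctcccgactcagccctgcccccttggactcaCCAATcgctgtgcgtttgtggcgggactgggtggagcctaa
Cenpa: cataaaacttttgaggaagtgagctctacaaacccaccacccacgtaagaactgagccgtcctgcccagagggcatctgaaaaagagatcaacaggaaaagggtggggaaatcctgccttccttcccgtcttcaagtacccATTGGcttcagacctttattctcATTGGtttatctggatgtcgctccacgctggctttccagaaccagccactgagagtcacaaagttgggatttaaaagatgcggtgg
Hmgb2: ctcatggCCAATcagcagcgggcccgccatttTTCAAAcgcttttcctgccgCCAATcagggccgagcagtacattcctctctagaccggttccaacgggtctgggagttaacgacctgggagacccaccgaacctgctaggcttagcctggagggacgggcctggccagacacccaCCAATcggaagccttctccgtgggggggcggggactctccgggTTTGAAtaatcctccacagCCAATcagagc

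Of the 9 genes, 5 (Ccnb2, Cdc20, Ckap2, Tubb4b and Ube2c) held both motifs in their window, and 4 (Psrc1, in both of its promoters, Cenpa, Cenpe and Cenpf) held CCAAT matches but no CHR match. Hmgb2 held both. In Cdc20 the CHR match began 18 bases before the start, next to a CCAAT match at 8 bases and another at 53. In Ube2c it began 29 bases before the start on the opposite strand, and in Hmgb2 matches began at 30 and 218 bases. In Ccnb2 and Ckap2 it lay farther out, at 167 and 101 bases. These distances are counted from the RefSeq start. The 30 bases after that start were found in 0 of 3 GENCODE transcripts of Hmgb2, 0 of 1 of Ccnb2 and 0 of 11 of Psrc1. For Cdc20, Ube2c, Ckap2 and Cenpa at least 1 transcript held them. A pair of CCAAT matches on opposite strands overlap in Ube2c, where the capitals run on.

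Of the 51 members, 45 had a promoter in the RefSeq table. A CHR match lay in the 250 bases of 19 of them (42.2%), beside 18.3% of all 27025 genes with a promoter, a CCAAT match in 35 (77.8%, beside 37.5%), and both in 17 (37.8%, beside 6.45%). Among the further mitotic genes 7 of 30 (23.3%) held both, and among the S phase genes 4 of 30 (13.3%). A CCAAT match lay in 21 of 30 (70%) of each of these lists, close to the share of the members. For a CHR match it was 8 (26.7%) and 6 (20%). Within 100 bases of the start, 12 members (26.7%) had a CHR match, beside 6.76% of all genes. A match of these letters is a description of the sequence; whether any factor binds there was not measured, and members with and without a match were not compared in their response.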

How the data were processed

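Single-cell RNA-seq libraries were aligned to mm10 with Cell Ranger 1.2.1, per the submitters' processing notes. The authors deposited UMI counts per gene and cell with a cell table holding cluster and cell type labels, and the cells were taken as deposited. Cells of 2 further libraries (26078 cells), which match none of the samples, were not used. Library totals ran from 22463515 to 66594431 UMIs.

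Counts were summed per library and cell type and tested with edgeR 4.0.16 (filterByExpr, TMM, quasi-likelihood, Benjamini-Hochberg adjustment over all genes) in a fit of all 6 libraries. The labels do not say that replicates came from separate litters, so p-values measure the spread between these libraries. Log2 fold changes were printed for up to 4 called members with the highest and 4 with the lowest values per type and contrast, and for 10 example genes where called. Doublet scores came from Scrublet in scanpy 1.11.5 and were used only as an alternative. Scripts were tested on simulated data. The members and lists were chosen with earlier results of these data known. Alternatives covered scaling, DESeq2 1.42.0, filtering, doublets, thinning, left-out libraries and the replicate number as a block.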

Additional observations from a re-analysis of the deposited data

Results flagged for a closer look

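The change from Bax null to Bax null Atoh7 null was itself different in neurogenic cells and progenitors for 7 genes named in the text, by the edgeR interaction test. The log2 difference was -0.63 for Psrc1, -0.45 for Ckap2, -0.42 for Ccnb2, -0.41 for Cdc20, -0.39 for Ube2c, -0.31 for Cenpa and -0.17 for Tubb4b, lower in neurogenic cells in each case. DESeq2 did not call Ckap2 or Tubb4b. Tubb4b also lost its call without the shared barcodes, and Ckap2 with sums thinned to the smallest total. Both genes lost their call in some fits with a library left out as well. For Bax het Atoh7 null against the same Bax null libraries, the log2 differences were -0.63 for Psrc1, -0.58 for Ckap2, -0.42 for Cdc20, -0.37 for Ccnb2, -0.34 for Ube2c, -0.25 for Cenpa and -0.22 for Tubb4b, while Top2a was higher in neurogenic cells by 0.15. There DESeq2 did not call Tubb4b or Top2a. Top2a also lost its call without the shared barcodes or with doublets left out. Without the second Bax het Atoh7 null library the calls of Cdc20, Ckap2, Ube2c, Cenpa and Tubb4b ended. With the replicate number in place of the library as block, Psrc1 alone kept its call in each contrast. Both contrasts share the Bax null libraries, whose depth and mitochondrial share differed from those of the other 4. The part of these differences in the values was not tested.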

How the results depend on the processing

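Of the values of named genes recomputed under the alternatives, 872 kept their direction and call, 95 lost the call and 8 reversed. With library size as the only scaling, chosen after seeing the data like the removal of shared barcodes, the log2 fold change for Bax null Atoh7 null against Bax null became 0.29 for Top2a and 0.19 for Ube2c in progenitors, and 0.26 for Ccnb2, 0.26 for Cdk1, 0.12 for Cenpa and 0.27 for Top2a in neurogenic cells. For Bax het Atoh7 null against Bax null it became 0.09 for Top2a in progenitors and 0.17 for Tubb4b in neurogenic cells.

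Between Bax null Atoh7 null and Bax het Atoh7 null, 1 member was called in progenitors with library size only, no filter, shared barcodes left out or only the 4 libraries compared, and 0 to 4 with a library left out. In neurogenic cells 1 was called with library size only, DESeq2, the replicate block, doublets left out, thinned sums, shared barcodes left out or only 4 libraries, and 0 to 4 with a library left out. In the difference between types for Bax het Atoh7 null against Bax null, DESeq2 called 6 members, and 3 to 10 were called with a library left out. The causes were not tested.

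Replicate numbers did not pair the libraries: deviations of same-numbered libraries correlated from -0.11 to 0.36 in progenitors and from -0.16 to 0.33 in neurogenic cells. In the difference between types the replicate number took the place of the library as block, so the types of a library were no longer matched. In that fit 1 member (Psrc1) was called in each contrast with Bax null. The calls of the other 11 and 9 members were lost. With the replicate number added to the fit within neurogenic cells, Lbr lost its call between the genotypes lacking Atoh7 (adjusted p = 0.0546 by edgeR).

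The share of high progenitors was 60.03%, 57.04% and 59.31% in Bax null, Bax het Atoh7 null and Bax null Atoh7 null at a threshold of 0.5%, and 8.571%, 9.806% and 12.46% at 2%. For neurogenic cells it was 76.24%, 64.97% and 65% at 0.5%, and 22.02%, 17.7% and 20.12% at 2%. Without thinning it was 31.72% in Bax null progenitors. On 39 genes it was 33% in Bax null progenitors, and 54.69% and 49.28% in neurogenic cells of Bax null and Bax null Atoh7 null. With doublets left out it was 59.02% and 48.09% in neurogenic cells of Bax null and Bax het Atoh7 null. Without shared barcodes it was 32.16% and 43.55% in the 2 types of Bax null Atoh7 null.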
